A study of Mus musculus with 12 samples.

Results

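The genes described here encode 9 Krüppel-like factors, Klf2, Klf3, Klf4, Klf5, Klf6, Klf9, Klf10, Klf13 and Klf15, measured by array in the heart and skeletal muscle of mice fed a high-iron diet. Members were chosen by symbol: each probe that the platform annotation assigned to 1 of these 9 genes was taken, which gave 17 of the 46133 probes on each array. Klf2, Klf9, Klf13 and Klf15 had 1 probe each, and the other 5 genes had several. Male C57BL/6 mice, aged 18 weeks at sampling, had received for 6 weeks either a control chow containing 0.02% iron or a chow with 2% carbonyl iron. The extensor digitorum longus, a hindlimb skeletal muscle, and the heart of 3 mice per diet were each hybridized to an array of their own, giving 12 arrays in 4 groups of 3. The design gives 1 heart and 1 muscle sample from each animal, and arrays of the same diet and replicate number were taken to come from the same mouse, which the sample titles do not state. These were whole tissues, so RNA of vessels, blood and connective tissue was measured together with that of the muscle fibres.

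Krüppel-like factors are transcription factors that bind GC-rich and CACCC-type elements through zinc fingers at their C-terminal end, and members activate or repress depending on the partners that their N-terminal part recruits. Several are early-response genes whose transcripts turn over quickly. Klf2 and Klf4 are induced in endothelium by laminar flow, Klf15 controls amino acid and lipid use in striated muscle, Klf9 responds to glucocorticoids and thyroid hormone, and Klf10 is induced early by TGF-β. Signals below are quantile-normalized and have no unit. After normalization the median signal of all probes was 257, so a probe near that value was dim, and signals of different probes cannot be set against each other as transcript levels. A probe was called when its limma p-value, adjusted by the Benjamini-Hochberg method over all 46133 probes, was under 0.05.

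The arrays fitted their tissue labels: of 11 cardiac marker genes measured, 10 were called higher in the heart, and of 11 skeletal muscle markers 10 were called lower there. Among the hearts, control replicate 2 and high-iron replicate 1 stood apart. Their correlations with the other 4 hearts were 0.929 to 0.939, whereas the lowest correlation among those 4 was 0.985, and 115 probes were lower by at least 1 log2 unit on both arrays than on any other heart, against 1 probe that was higher. The summed signal of 6 atrial markers was 57721 on high-iron heart replicate 1 and 1860 to 5390 on the other hearts, and the summed signal of 7 adipocyte markers was 4726 on control heart replicate 2 and 1698 to 1889 on the others. The summed signal of 8 fibroblast markers was 22501 and 21530 on the pair and 13750 to 16731 on the other 4 hearts. High sums on the pair were not particular to fibroblast markers. The cardiac markers summed to 148895 and 146663 there, against 115826 to 124671 on the other hearts. The endothelial markers summed to 19104 and 18399, against 16301 to 17169. The macrophage markers summed to 4458 and 4803, against 4010 to 4320. The red cell, neutrophil and smooth muscle marker sums did not follow this order. The methods of the study also report hybridization problems on a control and an iron-loaded heart, with probes that failed there, and the labels do not say which arrays or probes these were. Heart results are therefore given with and without this pair.

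Klf4 was the member with down-regulated expression in skeletal muscle of mice on the high-iron diet. It encodes a factor known from epithelial differentiation, endothelium and the reprogramming of somatic cells to pluripotency. Its brightest probe (5570750) gave 801, 1055 and 991 in the control muscles and 511, 561 and 662 in the high-iron muscles. All 3 high-iron muscles lay below all 3 controls. Mean signal was 949 ± 132 (SD, n = 3) on the control diet and 578 ± 76.8 (SD, n = 3) on the high-iron diet, a difference of -0.71 on the log2 scale (SE 0.098, 95% interval -0.92 to -0.51, limma adjusted p = 0.00076). The second probe (3830239) read 599, 608 and 584 on the control diet and 373, 358 and 433 on the high-iron diet, again without overlap, and the fitted difference was -0.63 (SE 0.078, limma adjusted p = 0.000254). The third probe (1850022), closer to the median of the array, gave 276, 358 and 316 against 227, 228 and 241, a difference of -0.44 (SE 0.084, limma adjusted p = 0.033). That call was lost when control replicate 2 or 3, or high-iron replicate 1 or 2, was left out (limma adjusted p = 0.347, 0.0668, 0.29 and 0.11). Thus the 3 probes of Klf4, which measure the same transcripts in the same RNA and are not replicates, were each called lower.

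**Figure D1:**
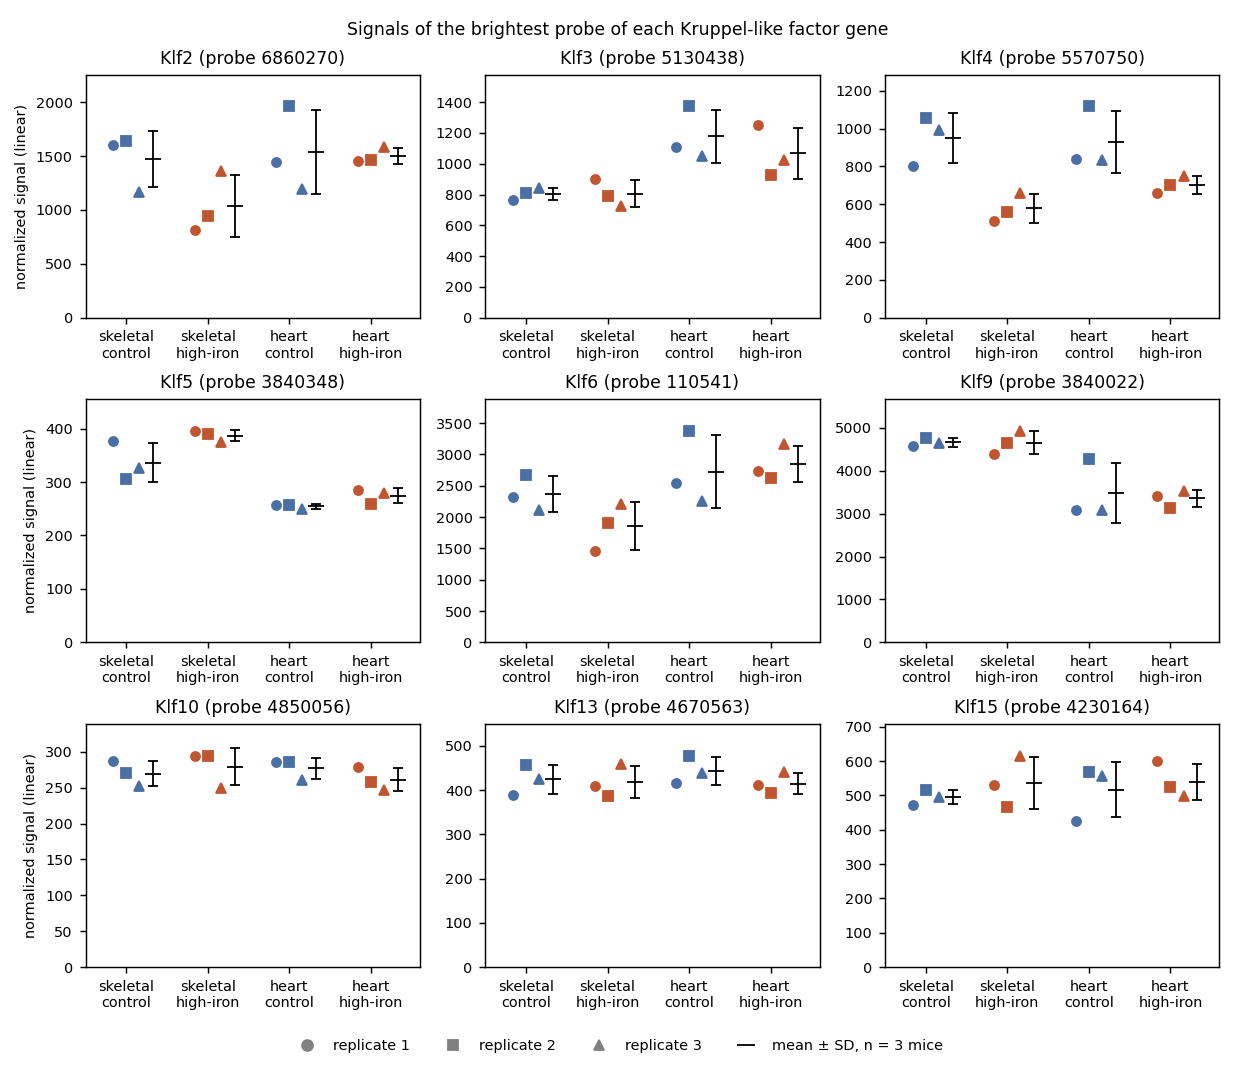
Quantile-normalized signal (linear axis from 0, no unit) of the brightest probe of each of the 9 genes in the 4 groups, with 1 point per array, blue for the control diet and orange for the high-iron diet, point shape for the replicate number, and bars for the mean and SD of 3 mice. For Klf4 the 3 high-iron muscles lie between 511 and 662, below the controls at 801 to 1055, whereas for Klf9 the 6 muscles lie above all 6 hearts.

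Klf4 lies on mouse chromosome 4, at positions 55527137 to 55532475 on the minus strand of the RefSeq GRCm38.p6 build. The array annotation names no build, so positions and promoters here are those of RefSeq, in which 7 of the 9 genes matched a promoter window. The 250 bases before the Klf4 start are shown with those of Klf2 and Klf6, since these were the 3 genes with the lowest fitted differences in high-iron muscle. Each runs 5′ to 3′ on the strand of its gene, with the E-box CACGTG and the MEF2 box in capitals.
Klf4, chr4:55532476-55532725, minus strand: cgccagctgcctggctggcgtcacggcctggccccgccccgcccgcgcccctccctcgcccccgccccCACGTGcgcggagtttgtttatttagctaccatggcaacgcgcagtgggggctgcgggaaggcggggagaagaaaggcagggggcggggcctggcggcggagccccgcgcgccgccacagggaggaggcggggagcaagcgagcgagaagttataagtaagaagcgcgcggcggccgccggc
Klf2, chr8:72318812-72319061, plus strand: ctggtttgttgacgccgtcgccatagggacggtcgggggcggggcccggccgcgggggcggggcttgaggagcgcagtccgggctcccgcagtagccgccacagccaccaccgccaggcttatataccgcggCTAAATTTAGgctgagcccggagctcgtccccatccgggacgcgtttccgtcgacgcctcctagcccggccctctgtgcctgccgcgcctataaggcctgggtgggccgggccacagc
Klf6, chr13:5861239-5861488, plus strand: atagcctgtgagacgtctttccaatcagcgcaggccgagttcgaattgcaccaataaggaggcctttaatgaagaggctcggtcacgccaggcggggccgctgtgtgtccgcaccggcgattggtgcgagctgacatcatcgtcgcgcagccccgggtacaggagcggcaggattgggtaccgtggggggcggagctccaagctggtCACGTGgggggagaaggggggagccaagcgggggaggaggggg
The E-box, a palindrome read by basic helix-loop-helix factors, was found on a search of both strands in 3 of the 7 windows, those of Klf4, Klf6 and Klf15, and in 6.05% of 27025 mouse promoter windows of the same length. In Klf4 it spans -182 to -177 and in Klf6 -43 to -38, counted from the base before the start as -1. The MEF2 box, the A/T-rich element of the myocyte enhancer factor family, was found in the Klf2 window alone, at -118 to -109, and in 0.518% of all windows. GGGCGG, the GC box, was present in 6 of the 7 windows against 32.9% of all windows, CACCC in 5 against 51.3%, CCAAT in 4 against 34.5%, and the CArG box, TATAAA and GAANNTTC, the heat shock element core, in 0 against 1.4%, 13% and 6.78%. Matches of GGGCGG and CACCC overlapped at 1 place each in the Klf3 and Klf13 windows, and no other motifs searched overlapped. These matches describe letters and not binding.

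Across the 17 probes, the 3 of Klf4 were those called for diet in skeletal muscle, all 3 lower, and over all probes 46 were called, which is 0.0997% in either direction and 0.078% lower. At an unadjusted p under 0.05 there were 6 member probes, and the background was 5.12%. Signals of the diets did not overlap for 4 member probes, all lower on the high-iron diet, against 4.97% of all probes; the fourth was the dim second probe of Klf10. By the size rule that the study used, a change of at least 1.4-fold in mean signal, 3 member probes passed, those of Klf2 (-1.42) and 2 of Klf4 (-1.64 and -1.54), against 0.117% of all probes. The median difference over the brightest probes of the 9 genes was -0.00322, close to the median over all probes of -0.000174. The calls for Klf4 depended on the processing: with each array scaled to one median, with normexp background correction, or with the spread estimated over all 4 groups in one fit, 0 of the 17 probes were called. The 3 Klf4 differences were no smaller under these settings: -0.74, -0.63 and -0.46 with median scaling and -0.88 on each probe with normexp. The fit over 4 groups left them as they were, and gave a limma adjusted p of 0.135 for the first 2 Klf4 probes and 0.772 for the third.

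Klf2, best known from endothelium and quiescent lymphocytes, read 1605, 1641 and 1171 in the control muscles and 813, 945 and 1363 in the high-iron muscles. High-iron replicate 3 lay above control replicate 3, so the diets overlapped. The means were 1473 ± 262 and 1040 ± 287 (SD, n = 3 each), and the log2 difference of -0.52 (SE 0.14, 95% interval -0.80 to -0.24) was not called (limma adjusted p = 0.312). Without control replicate 3 the difference was -0.68 (limma adjusted p = 0.0233) and without high-iron replicate 3 it was -0.73 (limma adjusted p = 0.00366), so either of these muscles decided the call. Klf2 lies at positions 72319062 to 72321654 of chromosome 8.

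Klf6, an injury-responsive member of wide expression, followed a like order of arrays. Its brighter probe (110541) read 2317, 2673 and 2105 on the control diet and 1460, 1905 and 2214 on the high-iron diet, which overlapped. The difference of -0.36 (SE 0.11, 95% interval -0.59 to -0.13) was not called (limma adjusted p = 0.584), and the dimmer probe (5360026) gave -0.11 (SE 0.079). Klf5, a growth-associated factor of epithelium and vascular smooth muscle, had the highest fitted difference among the brightest probes. Its brightest probe (3840348) read 377, 305 and 326 on the control diet and 396, 391 and 375 on the high-iron diet. The difference was 0.21 (SE 0.08, 95% interval 0.042 to 0.37, limma adjusted p = 0.881), with high-iron replicate 3 just under control replicate 1.

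The remaining members gave small differences in muscle. Klf9, a glucocorticoid and thyroid hormone target, differed by -0.00287 (95% interval -0.15 to 0.15). Klf15, the regulator of amino acid catabolism, differed by 0.11 (95% interval -0.072 to 0.29), and Klf13, a repressor-type member expressed in heart and lymphocytes, by -0.02 (95% interval -0.19 to 0.15). Klf3, a repressor that recruits CtBP, differed by -0.00322 on its brightest probe (95% interval -0.17 to 0.17). Klf10 differed by 0.049 on its brighter probe, whose signals of 249 to 295 in muscle lay near the array median. None of these was called, which does not show that they were equal on both diets.

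**Figure D2:**
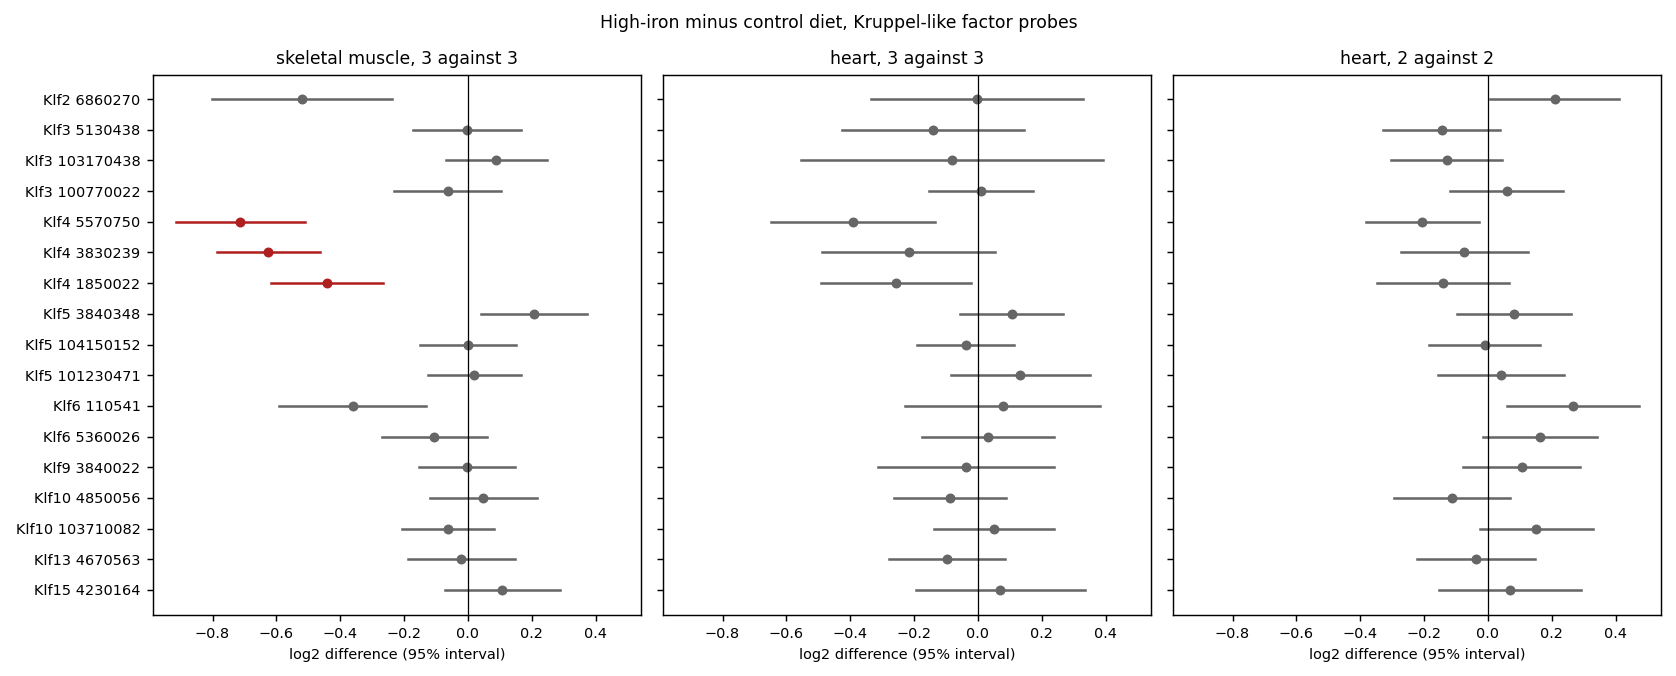
High-iron minus control difference on the log2 scale for each of the 17 probes, with its 95% interval, in skeletal muscle, in heart, and in heart without the 2 arrays that stood apart; red marks probes called by limma and grey the others. The 3 Klf4 probes are red in skeletal muscle, at -0.71, -0.63 and -0.44, and no probe is red in either heart panel.

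Genes of other lists moved in the same muscles. Each was read on its brightest probe. Over all probes 0.0997% were called in either direction and 0.078% lower. With each array scaled to one median, or with normexp background correction, 0 of all probes were called. The list calls given here were therefore lost under these settings, as those of Klf4 were. Of 22 immediate early genes, 3 were called lower and 0 higher, with a median difference of -0.182 against -0.000174 over all probes: Fos fell by 1.03 log2 units, Atf3 by 0.45 and Jun by 0.44 (limma adjusted p = 0.0045, 0.0259 and 0.0429). Of 12 early TGF-β response genes 2 were lower, Id1 (-0.71) and Ccn2 (-0.73). Of 19 glucocorticoid-responsive genes, Cdkn1a, the cell-cycle inhibitor p21, was lower (-0.66) and Fbxo32, the muscle ubiquitin ligase atrogin-1, was higher (0.47). Of 17 clock genes, Nfil3 was lower (-0.72, limma adjusted p = 0.000286). No call was made among 18 reported Klf15 targets of muscle metabolism, 14 reported Klf2 and Klf4 targets of endothelium, 12 partners and turnover factors of the family, or 15 other Sp and Krüppel-like factor genes. The absence of a call does not show that these genes were equal on both diets. The 18 Klf15 targets summed to 35226 to 38713 in control muscles and 40423 to 43795 in high-iron muscles, without overlap. In heart the sums were 40004 to 48415.5 and 50463 to 53566.5, also without overlap. The median log2 differences of these targets were 0.0514 in muscle and -0.065 in heart. The higher sums therefore do not show a rise across the set. The part of Klf15 in these sums was not tested. Some genes stand in more than 1 list.

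Markers of other cells were read beside these values. Of 14 endothelial markers 0 were called for diet in muscle, and their summed signal was 11416 to 12233 on the control diet and 11512 to 11787 on the high-iron diet. The sums of the diets overlapped. Of 9 neutrophil markers 2 were called higher on the high-iron diet, S100a8 and S100a9, against 0.0997% of all probes called in either direction. The summed signal of the 9 was 2341 to 2438 on the control diet and 2543 to 3394 on the high-iron diet. Their median log2 difference was 0.0206, against -0.000174 over all probes, so the higher sum does not show a rise across the set. The part of endothelial or neutrophil RNA in the Klf4 result was not tested. In whole tissue, fewer cells of a type and less RNA per cell cannot be told apart.

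In the heart no member was called for diet. limma called 0 of the 46133 probes (0%), with 1180 (2.56%) at an unadjusted p under 0.05, and among the 17 member probes 0 were called and 2, both of Klf4, had an unadjusted p under 0.05. No member changed 1.4-fold, against 0.165% of all probes. The brightest Klf4 probe read 838, 1119 and 835 in the control hearts and 658, 701 and 751 in the high-iron hearts. The high-iron hearts lay below the controls, as for 3.96% of all probes. The means were 931 ± 163 and 703 ± 46.3 (SD, n = 3 each), and the difference was -0.39 (SE 0.12, 95% interval -0.65 to -0.13, limma adjusted p = 1). Without the pair that stood apart it was -0.21 (SE 0.085, limma adjusted p = 1), with 838 and 835 against 701 and 751. The other Klf4 probes gave -0.22 and -0.26 on the 6 hearts, and -0.074 and -0.14 without the pair. The fitted values of Klf4 were thus below 0 in heart on either set of arrays, but none was called.

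Klf2 and Klf6 gave no such difference in the heart. Klf2 read 1443, 1962 and 1199 on the control diet and 1458, 1459 and 1587 on the high-iron diet, a difference of -0.00265 (95% interval -0.33 to 0.33). Klf6 read 2543, 3374 and 2261 against 2738, 2626 and 3171, a difference of 0.078 (95% interval -0.23 to 0.38). Control replicate 2, an array of the pair, was the highest heart for both genes and also for Klf4 and Klf9, and the summed signal of the 22 immediate early genes there was 17887.5 against 12126 to 14210 on the other hearts. On the 4 remaining hearts the difference was 0.21 for Klf2 (SE 0.096) and 0.27 for Klf6 (SE 0.099, limma adjusted p = 0.969). On those 4 arrays 28 of all probes were called (0.0607%) and 0 of the members. Of the immediate early genes, Fos and Egr1 were called higher (0.81 and 0.53), whereas Fos was lower in muscle. Pdk4, which stands in the lists of Klf15 targets and glucocorticoid-responsive genes, was also called higher (1.235, limma adjusted p = 0.0235). The part of the immediate early genes in the Klf2 and Klf6 values was not tested. Klf5 read 258, 257 and 249 against 285, 258 and 279, with every high-iron heart above the controls, as for 3.83% of all probes, and all of them were near the array median.

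The difference between the diet effects of both tissues was tested as an interaction. No member was called, nor any probe of the array, with 3 of 17 member probes and 1547 of all probes (3.35%) at an unadjusted p under 0.05. The diet effect in heart minus that in muscle was 0.32 for the brightest Klf4 probe (95% interval -0.033 to 0.67) and 0.41 for the second probe (95% interval 0.10 to 0.72, limma adjusted p = 0.9995). It was 0.52 for Klf2 (95% interval 0.0025 to 1.03) and 0.44 for Klf6 (95% interval 0.012 to 0.86). Without the pair of hearts the 4 values were 0.49, 0.55, 0.70 and 0.60, and the lowest of their limma adjusted p-values was 0.286, that of the second Klf4 probe, with 8 of all probes called (0.0173%) and 0 of the members. Hence a difference between tissues in the response of Klf2, Klf4 or Klf6 was not shown at this number of mice.

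**Figure D3:**
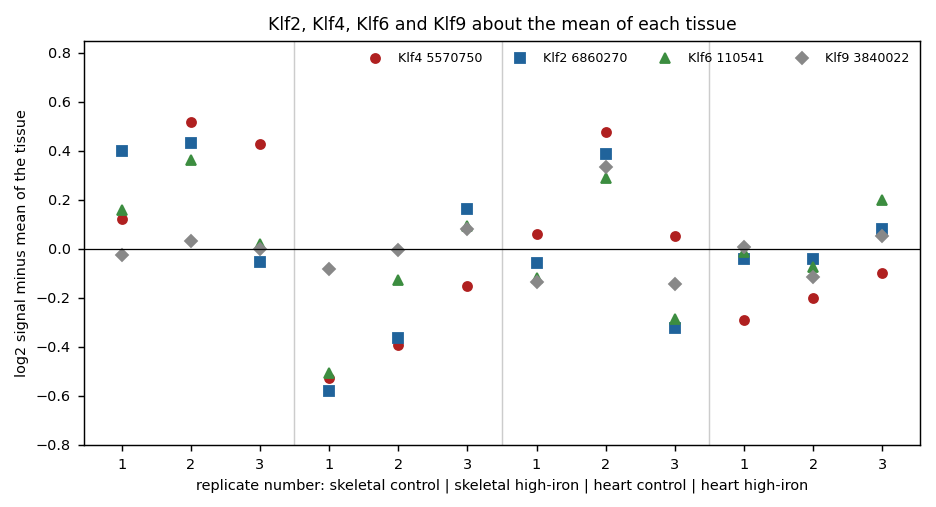
Log2 signal of each array minus the mean of its tissue for Klf4 (red circles), Klf2 (blue squares), Klf6 (green triangles) and Klf9 (grey diamonds), with the 12 arrays along the horizontal axis by group and replicate number. Klf4 and Klf2 are lowest on high-iron muscle replicate 1, at -0.53 and -0.58, and Klf2 and Klf6 lie close together on most arrays.

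Over the 12 arrays, each centred on its tissue mean, Klf2 and the brighter Klf6 probe ran together with a Pearson r of 0.936. Klf4 gave 0.708 with Klf2 and 0.682 with Klf6, and -0.833 with the brightest Klf5 probe. The 3 Klf4 probes gave 0.928 and 0.947 of the first with the others. Klf15 gave 0.0906 with Klf2 and -0.0753 with Klf4. The 5 named genes with the pattern most like that of Klf4, among probes above the median level, were Hsp90aa1 (0.951), Pik3r3 (0.924), Pias4 (0.921), Id1 (0.92) and Mapt (0.915). Of these Hsp90aa1, the inducible cytosolic HSP90, and Id1, an inhibitor of basic helix-loop-helix factors, were also called lower in high-iron muscle (-0.93 and -0.71). The centring was by tissue only, so the diet difference of Klf4 remained in the values by which these genes were picked. Their calls for diet are therefore not a separate finding. These correlations are descriptions over 12 arrays that share diets, animals and normalization.

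Comparing the tissues, 4 of the 17 member probes were called, 2 higher and 2 lower in heart, and over all probes 6164 were called, which is 13.4% (7.61% higher and 5.76% lower). At an unadjusted p under 0.05 there were 7 member probes, against 20.8% of all probes. The tissues did not overlap for 3 member probes, against 9.58% of all, and 0 differed 1.4-fold, against 5.25%. On 17 probes these shares are not far from those of the array. Without the pair of hearts 6923 probes were called (15%) and 5 of the members, and 2 of the members differed 1.4-fold against 5% of all probes. Klf9 was lower in heart. It read 3095, 4280 and 3075 in control hearts, 3417, 3134 and 3520 in high-iron hearts, 4567, 4757 and 4651 in control muscles, and 4394, 4639 and 4928 in high-iron muscles. Every heart lay below every muscle, and the nearest heart was control replicate 2 of the pair. The means were 3420 ± 460 and 4656 ± 179 (SD, n = 6 each), and the difference was -0.45 (SE 0.071, limma adjusted p = 0.000133). Without the pair it was -0.54.

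Klf5 was also lower in heart. Its brightest probe read 249 to 285 over the 6 hearts and 305 to 396 over the 6 muscles, with no overlap, and the difference was -0.45 (SE 0.053, limma adjusted p = 6.57e-06). The heart values lay near the median of all probes, where the files give no detection p-value to tell a dim transcript from background. The other Klf5 probes were near the median in both tissues, and differed by -0.057 and 0.0056.

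Klf6 and Klf3 were higher in heart. Klf6 (110541) read 2261 to 3374 over the hearts and 1460 to 2673 over the muscles. The tissues overlapped, and the difference was 0.41 (SE 0.10, limma adjusted p = 0.00834). It was 0.19 (limma adjusted p = 0.518) on the control diet alone and 0.63 on the high-iron diet alone, and 0.22 (limma adjusted p = 0.506) with each array scaled to one median. The dimmer Klf6 probe differed by 0.15 (limma adjusted p = 0.147). The brightest Klf3 probe (5130438) read 1106, 1373 and 1051 in control hearts, 1251, 929 and 1024 in high-iron hearts, and 726 to 903 over the 6 muscles, with no overlap. Its difference was 0.47 (SE 0.078, limma adjusted p = 0.000256). Of 14 endothelial markers 12 were called higher in heart, with a summed signal of 16301 to 19104 against 11416 to 12233 in muscle. Of 7 macrophage markers 5 were called higher. Over all probes, not only the brightest of each gene, 7.61% were called higher. The part of these cells in the values of Klf3 and Klf6 was not tested.

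**Figure D4:**
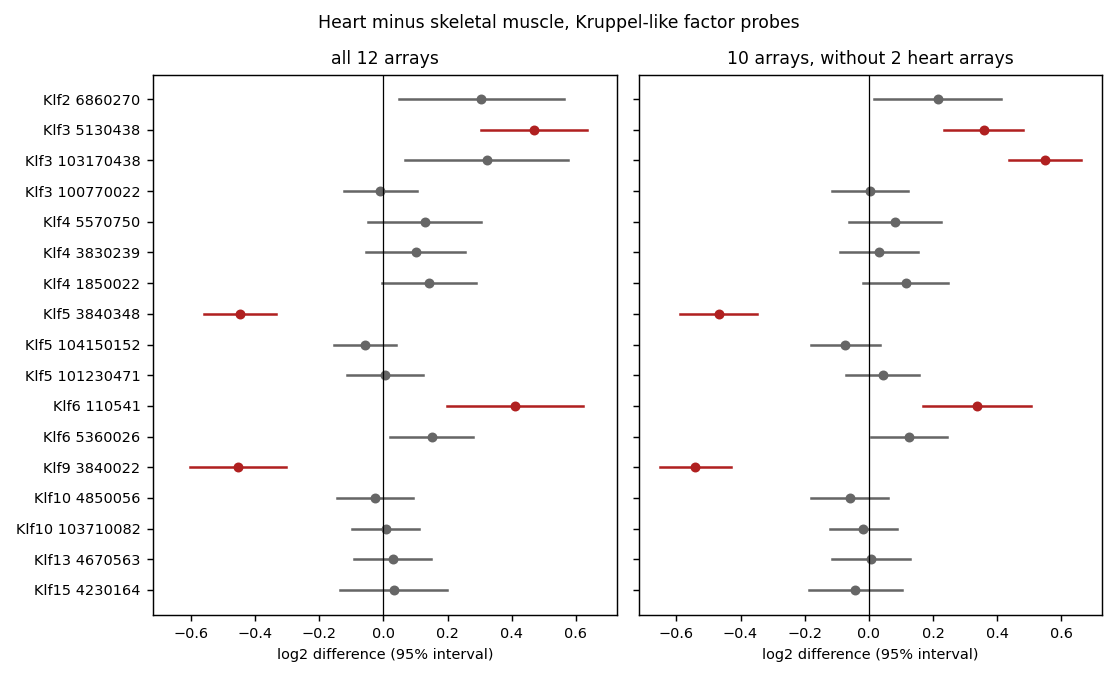
Heart minus skeletal muscle difference on the log2 scale with its 95% interval for each of the 17 probes, on all 12 arrays and on the 10 arrays left without the pair of hearts; red marks probes called by limma. Klf9 and the brightest Klf5 probe lie below 0 and the brightest Klf3 and Klf6 probes above 0 in both panels, and the second Klf3 probe is called on the 10 arrays alone.

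The probes of Klf3 disagreed on the pair of hearts. The second probe (103170438) read 524 on control heart replicate 2 and 529 on high-iron heart replicate 1, within the muscle range of 525 to 624 or just below it, and 802 to 882 on the other 4 hearts. On the brightest probe the same 2 hearts were the highest of the 6, at 1373 and 1251. The pair minus the other hearts was -0.67 on the second probe, at percentile 0.822 of all probes, and 0.35 on the brightest, at percentile 99. On all 12 arrays the second probe differed between tissues by 0.32 (SE 0.12, limma adjusted p = 0.102), and without the pair by 0.55 (SE 0.055, limma adjusted p = 6.86e-09), with means of 840 ± 43.5 (SD, n = 4) in heart and 576 ± 39.6 (SD, n = 6) in muscle. Leaving out either heart alone also gave a call, with 0.45 without control replicate 2 and 0.42 without high-iron replicate 1 (limma adjusted p = 0.00117 and 0.0058). The brightest probe differed by 0.36 without the pair (limma adjusted p = 3.82e-05). The high atrial and adipocyte marker sums given above lay on these 2 arrays, 1 on each. The high fibroblast, cardiac, endothelial and macrophage marker sums lay on both. The part of these cells in the Klf3 values, and whether the second probe was among those that failed to hybridize, was not tested. The third Klf3 probe was dim and differed by -0.00965.

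**Figure D5:**
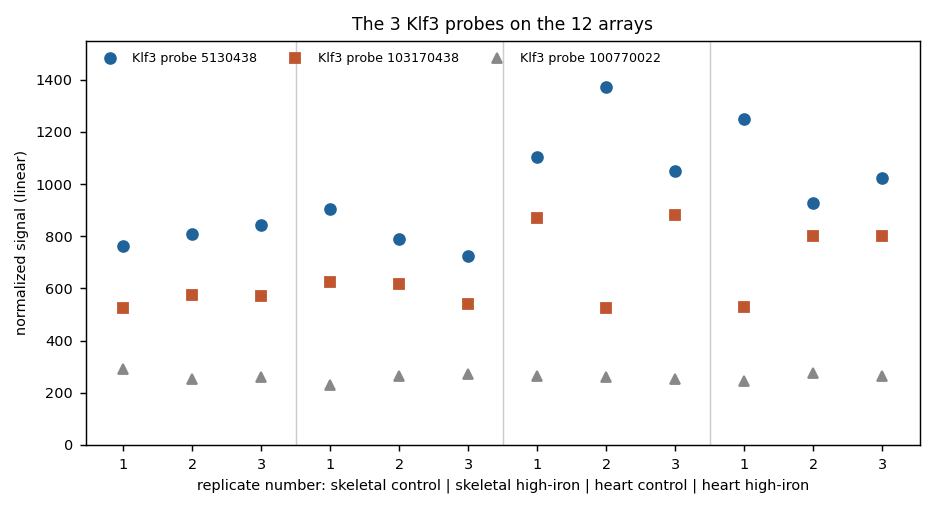
Normalized signal (linear axis from 0) of the 3 Klf3 probes on the 12 arrays, by group and replicate number, with blue circles for the brightest probe, orange squares for the second and grey triangles for the third. On the second probe control heart replicate 2 and high-iron heart replicate 1, at 524 and 529, lie with the muscles, while on the brightest probe they are the highest hearts.

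For the other members no difference between tissues was called on all 12 arrays. Heart minus muscle was 0.13 for Klf4 on its brightest probe (95% interval -0.049 to 0.31), Klf13 0.029 (95% interval -0.092 to 0.15) and Klf15 0.032 (95% interval -0.13 to 0.20). Klf10 differed by -0.027 on its brighter probe (95% interval -0.14 to 0.091). Klf15 read 425 to 599 over the hearts and 466 to 616 over the muscles. Of the 18 reported Klf15 targets, each read on its brightest probe, 11 were called higher in heart and 2 lower. The shares were 7.61% and 5.76% over all probes, a set that includes dim probes and probes with no symbol. Their median difference was 0.421, against -0.000354 over all probes. Control of these genes by Klf15 was not tested. Among them Acadm, a fatty acid oxidation enzyme, differed by 1.81, the branched-chain amino acid enzymes Bckdhb and Mccc1 by 0.83 and 0.80, and Gpt2, an alanine aminotransferase, by -2.41. Klf2 was 0.30 higher in heart (SE 0.12, 95% interval 0.047 to 0.56, limma adjusted p = 0.137). It was 0.046 higher on the control diet alone (limma adjusted p = 0.945). On the high-iron diet alone it was 0.56 higher (limma adjusted p = 0.0217), and without high-iron muscle replicate 3 it was 0.41 higher (limma adjusted p = 0.0186). Of the 14 endothelial targets of Klf2 and Klf4, 8 were called higher in heart and 0 lower, against the same shares of all probes. Ptgds, a prostaglandin synthase, was among them at 3.86. The median difference of these targets was 0.283. That of the 14 endothelial markers, of which 12 were called higher, was 0.506, and Tek stands in both lists. Control by Klf2 or Klf4, and the part of endothelial cells, was not tested. The 15 other Sp and Krüppel-like factor genes gave 0 calls between tissues. Their summed signal was only 4476 to 4927 on any array, where the median probe was 257, so most were dim and equal expression was not shown.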

How the data were processed

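Total RNA of 12 tissues was labelled and hybridized individually to Illumina Sentrix Mouse-6 BeadChips. The authors read the arrays with BeadStudio; the deposited per-sample values are probe intensities before normalization, with array medians of 183 to 337, highest in replicate 1 and lowest in replicate 3 of every group. Background handling and the chip of each array are not given in the sources used here. Whether chip went with diet or tissue is therefore unknown and could not be tested. Without detection p-values dim probes carry no call of presence. The authors' own quantile-normalized intensity table was used as an alternative. Intensities were quantile normalized over 12 arrays, log2 transformed with no offset and fitted in limma 3.58.1 (R 4.3.3): diets within each tissue, and tissues and the interaction over the 12 arrays, where arrays taken to be of 1 mouse formed a random block (duplicateCorrelation, consensus 0.0717). The pairing rests on the design text and the shared replicate numbers. Deviations of same-numbered heart and muscle arrays correlated at 0.0262 to 0.0998. The highest correlation with an array of another number was -0.0212 to -0.0103. This order does not by itself show a pairing. All probes entered, with 29542 having 1 symbol, 11 several and 16580 none, and the brightest probe stood for a gene. The 9 members were named with every probe; other lists gave at most 4 called genes, ordered by p. Members, lists and the pair of hearts were chosen with earlier results of these data known. Scripts were tested on simulated data. The number of arrays limits the precision.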

Additional observations from a re-analysis of the deposited data

How the results depend on the processing

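The 3 calls for diet in skeletal muscle became 0 with each array scaled to one median (0 over all probes), 0 with normexp background correction (0 over all probes) and 0 with one fit over all 4 groups (2 over all probes); the cause was not tested. The other planned settings gave 2 or 3, and leaving out each array in turn gave 2 to 4 member probes and 27 to 65 of all probes. The third Klf4 probe was the least stable: it was called in 5 of 14 alternatives, against 11 of 14 for each of the other probes, and leaving out control replicate 2 gave an adjusted p of 0.347 in limma. The sign of all 3 Klf4 probes was negative in every alternative run in either tissue. Taking the replicate number as a replicate block between diets, where the numbers mark no shared animal, left 3 member probes called in muscle and 77 of all probes, and 0 in heart. In heart 0 members were called in all 15 alternatives, and the interaction gave 0 in all 20. Between tissues the count of 4 ranged from 3 to 5, and 4 were called without the replicate block; Klf9 and the brightest Klf3 and Klf5 probes were called in 23 of 23. No called value changed sign. With 3 mice per group, the signal over background sets the limit for the dim probes of Klf10 and the lesser probes of Klf3 and Klf5.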
